A study of Mus musculus with 12 samples.

Results

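The genes described here encode the protein subunits of the cytosolic 60S ribosomal subunit, the larger of the subunits that make up a mammalian ribosome. They were chosen by symbol from a list of 45 protein-coding genes, no pseudogene copy counted among them, and all 45 were found by their mm10 annotation among the 43432 gene identifiers of the expression tables. The cells were adult neural stem cells (NSCs), taken from the subventricular zone of male wild-type C57BL/6 mice that were 6 to 8 weeks old, and they were cultured for 4 days in 1.5 µM folic acid (low folate, LF), 80 µM folic acid (high folate, HF) or 10 µM folic acid (median folate, MF, the reference). From each culture condition poly(A) mRNA was sequenced from total RNA and from the polysome part of a sucrose gradient, pooled from fractions that held mRNAs with more than 3 ribosomes after cycloheximide had stopped the ribosomes. With 2 biological replicates per condition this gave 12 libraries in 6 groups. Cells were of 1 genotype throughout and carried no allele or transgene, and the labels do not say whether a polysome and a total library came from the same culture.

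In a eukaryotic ribosome the large subunit forms the peptide bond and holds the tunnel through which the new protein leaves. Its proteins are made in the cytoplasm, imported into the nucleolus, placed on ribosomal RNA with the help of assembly factors and exported again. Most vertebrate mRNAs for these proteins begin with a terminal oligopyrimidine (TOP) tract, a run of C and T bases at the very start of the mRNA. Through it the kinase mTORC1 and the RNA-binding protein Larp1 are known to move these mRNAs together between ribosome-free particles and polysomes.

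The sequences around the annotated starts show where runs of C and T lie in the mouse genes. RefSeq promoter sequence (GRCm38.p6) was at hand for 34 of the 45 genes. The lines below give 30 bases on the coding strand, 15 before and 15 from an annotated start onward, with the longest run of C and T in capitals. The first 5 genes have the longest runs, and the last 3 are genes described below whose polysome-to-total ratio was lower in LF than in MF. The windows are chr2:26910792-26910821 for Rpl7a, chr7:109519180-109519209 for Rpl27a, chr3:130730323-130730352 for Rpl34, chr2:39005117-39005146 for Rpl35, chr14:18270972-18271001 for Rpl15, chr7:45718056-45718085 for Rpl18, chr10:128549154-128549183 for Rpl41 and chr17:28328456-28328485 for Rpl10a. Rpl34, Rpl35, Rpl15 and Rpl41 lie on the minus strand.
Rpl7a: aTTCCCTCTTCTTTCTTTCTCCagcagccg
Rpl27a: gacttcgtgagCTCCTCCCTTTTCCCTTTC
Rpl34: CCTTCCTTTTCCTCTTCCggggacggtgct
Rpl35: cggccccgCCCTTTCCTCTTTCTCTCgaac
Rpl15: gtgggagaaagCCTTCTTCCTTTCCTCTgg
Rpl18: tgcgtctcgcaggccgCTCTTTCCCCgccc
Rpl41: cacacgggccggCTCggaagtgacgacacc
Rpl10a: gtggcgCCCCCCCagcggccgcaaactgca
The run was 21 bases in Rpl7a, 10 in Rpl18, 7 in Rpl10a and 3 in Rpl41. In Rpl10a and Rpl41 it lay wholly before the annotated start, and in Rpl18 it began after the first base. These lengths are therefore not lengths of a TOP tract. A run of at least 6 bases was found in 21 of the 34 genes, taking the longest where a gene had several annotated starts. The share of all genes with such a run is not given here. The letters CTTTCC, read on the coding strand within 50 bases of the start on either side, were present in 15 of 34 genes (44.1%), against 1468 of 27025 genes in the whole promoter table (5.43%). On either strand the count was again 15, against 10.3% of all genes. CCGGAAG, searched over all 300 bases and on both strands, was present in 14 of 34 genes, against 9.93% of all genes. The 2 motifs can overlap by the letters CC, the end of CTTTCC and the start of CCGGAAG. These are matches of letters and were not tested as binding sites, and an annotated start may lie some bases from the start used in these cells.

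Library totals ran between 24193468 and 28170296 expected counts in the polysome fraction and between 20506797 and 23593252 in total mRNA. The defining NSC genes Nes and Sox2 were present in every total library at 357 TPM or more and at 100.4 TPM or more. The microglial genes Aif1 and Cx3cr1 were at 0 in all 12 libraries, and Csf1r, Cdh5, Mog and Rbfox3, defining genes of microglia, endothelium, oligodendrocytes and neurons, did not pass 0.17 TPM in any, while the endothelial gene Pecam1 reached 1.52 TPM. The summed TPM of 18 NSC markers lay between 7460 and 9170 in polysomes and between 7108 and 8917 in total mRNA. Mesenchymal and mural markers (17 genes, 5 of them under 1 TPM throughout) summed to between 678 and 1285 TPM in polysomes and between 428 and 669 TPM in total mRNA. The mean of the mesenchymal sum was 807 TPM in LF, 882 TPM in MF and 1187 TPM in HF in polysomes. In total mRNA it was 643 TPM in LF, 600.1 TPM in MF and 463 TPM in HF. There 7 of 14 of these markers tested were lower in HF against LF (edgeR). Of all 13912 genes 1.79% were called in either direction in that comparison. Neuron markers (13 genes, 9 at 1 TPM or more in a total library) summed to between 60.4 and 112 TPM in polysomes, with means of 60.5 TPM in LF, 103 TPM in MF and 72.1 TPM in HF, and to between 169 and 187 TPM in total mRNA. Oligodendrocyte lineage markers (8 genes) summed to between 37.9 and 69.4 TPM in polysomes and between 72.9 and 79.2 TPM in total mRNA, microglial markers to at most 13.6 TPM and endothelial markers to at most 3.35 TPM in any library. The part of these markers in the results below was not tested. In bulk RNA fewer cells of a type and less RNA per cell cannot be told apart. The polysome LF replicates stood apart: 15.8% of 9586 genes over 10 CPM (TMM-scaled counts relative to library total) differed by more than 2-fold between these replicates, against 0.313% in polysome MF and 0.313% in polysome HF. The counts of called members that rest on these libraries, and the members called between doses, are therefore also given without each of them.

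The expected counts of several of these genes depend on how reads were divided among near-identical copies. Ribosomal protein genes have many processed pseudogenes, copies made by reverse transcription of the mRNA, and RSEM divides a read that matches several genes among them by estimated probability. A search with the coding sequences found 289 annotated copies of 43 members, of at least 95% identity over at least 50% of the coding length, and 16 of the copies held 100 counts or more over the 12 libraries. For 34 members less than 1% of the counts of gene and copies together lay in copies. For 10 members it was over 10%, and for 6 of these it was over 50%. Rpl12 had 95.2% of its family's counts in copies, Rpl5 93.9%, Rpl27 92.4%, Rpl10 74.0%, Rpl10a 62.1% and Rpl31 54.0%. For Rpl27a the share was 48.3%, for Rpl13 42.4%, for Rpl15 20.2% and for Rpl14 11.6%. The values of these 10 genes are uncertain, and below many of them are also given with all copies summed. Not every call or direction that changed on summing is listed.

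**Figure D1:**
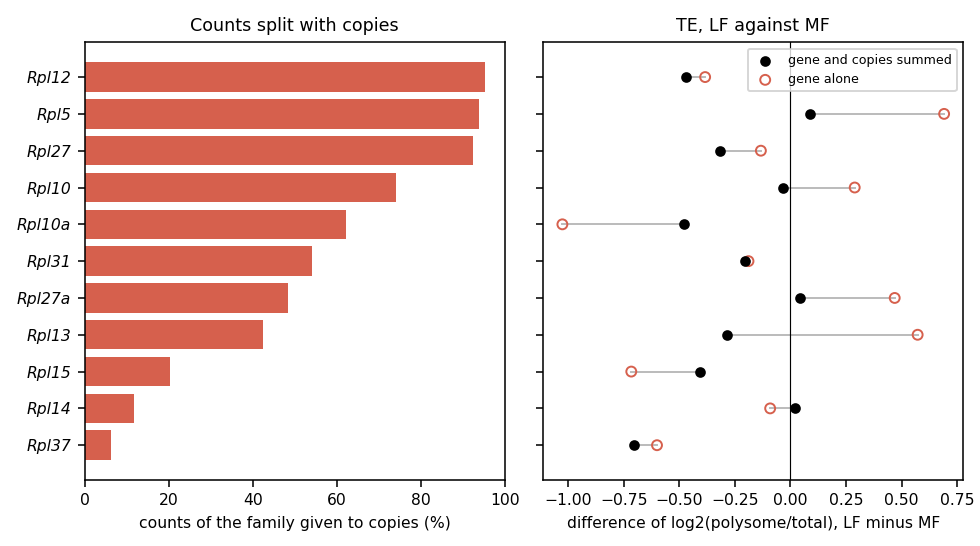
The bars (left) give the percentage of each family's expected counts, over 12 libraries, that lay in annotated copies, for the 11 members above 1%. The right panel gives the difference of log2(polysome/total) between LF and MF for the gene alone (open circles) and for gene and copies summed (filled circles). Rpl12, Rpl5 and Rpl27 had more than 90% of their counts in copies, and the values of Rpl13 and Rpl5 moved most on summing.

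In total mRNA the 60S protein mRNAs were among the most abundant of these cells. Of the 45 members, 26 stood among the 100 highest gene identifiers by mean TPM, a unit that corrects for length and so allows levels to be compared between genes, and 31 passed 1000 TPM. Rpl23a, whose protein sits at the tunnel exit where the signal recognition particle docks, had the highest level at 3692 ± 117 TPM (SD, n = 6 total libraries over the 3 doses). It was followed by Rpl26, another protein of the exit region, at 3279 ± 125 TPM and by Rpl41, the smallest protein of the ribosome, at 3087 ± 95.6 TPM. Rpl19 came next at 2572 ± 60.3 TPM, and Rpl34 at 2456 ± 137 TPM and Rpl32 at 2385 ± 68.2 TPM did not differ beyond their spread. Rpl7a followed at 2260.2 ± 54.2 TPM. From rank 8 to rank 16 the levels lay between 2017 TPM (Rpl13a) and 1789 TPM (Rplp1), with Rpl13a at an SD of 158 TPM and Rplp1 at 162 TPM, so that this part of the order was not resolved.

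Rpl12 at 30.8 ± 2.30 TPM, Rpl27 at 81.8 ± 9.16 TPM and Rpl5 at 86.8 ± 5.20 TPM were the only members under 100 TPM, and all 3 had more than 90% of their counts in copies. With copies summed these families reached 1262 TPM for Rpl12, 2679 TPM for Rpl27 and 1739 TPM for Rpl5, within the range of the other members. Rpl31 with its copies stood at rank 1 with 4323 TPM. Among the 34 members with less than 1% in copies the highest and lowest differed by 7.18 times, with Rpl36 lowest at 515 ± 58.1 TPM.

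The levels varied little between total mRNA libraries. The coefficient of variation of CPM over the 6 total libraries had a median of 3.61% over members and was highest for Rpl36 at 10.8%, whereas over the 6 polysome libraries the median was 20.4% and the highest, again Rpl36, 57.4%. The 45 genes together took between 2.51% and 3.26% of all counts in polysome libraries and between 1.89% and 2.05% in total libraries. By dose, the share in polysomes was 2.65 ± 0.201% in LF, 2.99 ± 0.0148% in MF and 3.11 ± 0.207% in HF (SD, n = 2 each). In total mRNA it was 1.97 ± 0.112% in LF, 1.93 ± 0.0145% in MF and 1.93 ± 0.0360% in HF.

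Folate concentration was first compared in total mRNA, where no member was called at the study's thresholds (edgeR quasi-likelihood test, adjusted p under 0.05 and fold change over 1.2). Of all 13912 genes tested, 0.00719% were called in LF against MF, 0.0863% in HF against MF and 1.79% in HF against LF. The members' log2 fold changes were small: they ranged between -0.14 and 0.15 in LF against MF (median 0.0031), between -0.13 and 0.07 in HF against MF (median 0.0086) and between -0.17 and 0.15 in HF against LF (median -0.0041). An unadjusted p under 0.05 was reached by 2 members in LF against MF, by 0 in HF against MF and by 4 in HF against LF, and DESeq2 called 0 members in each of these comparisons. Rpl15, a body protein, had the highest value in LF against MF at 0.15, but it is one of the genes with counts in copies. Its libraries had 574 and 592 CPM in LF, against 520.0 and 526 CPM in MF. In HF, where it had 519.5 and 518 CPM, it was lower than in LF by an adjusted p of 0.0377 (edgeR), its log2 difference of -0.17 was smaller than the fold threshold, and with copies summed the difference was -0.11 (adjusted p = 0.322). Rpl7 stood at 0.11 in LF against MF and at -0.13 in HF against LF, and the lowest values in LF against MF were those of Rpl27 (-0.14), Rpl36 (-0.13) and Rplp2 (-0.08), all 3 of which turned direction without 1 of the total LF libraries, Rpl27 also with copies summed. Without the second LF total library Rplp1 passed the threshold, lower in LF against MF, with LF resting on 1 total library (195 CPM). Both LF libraries lay above both MF libraries in 11 members and below them in 1, against 17.9% and 17% of all 14421 genes.

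**Figure D2:**
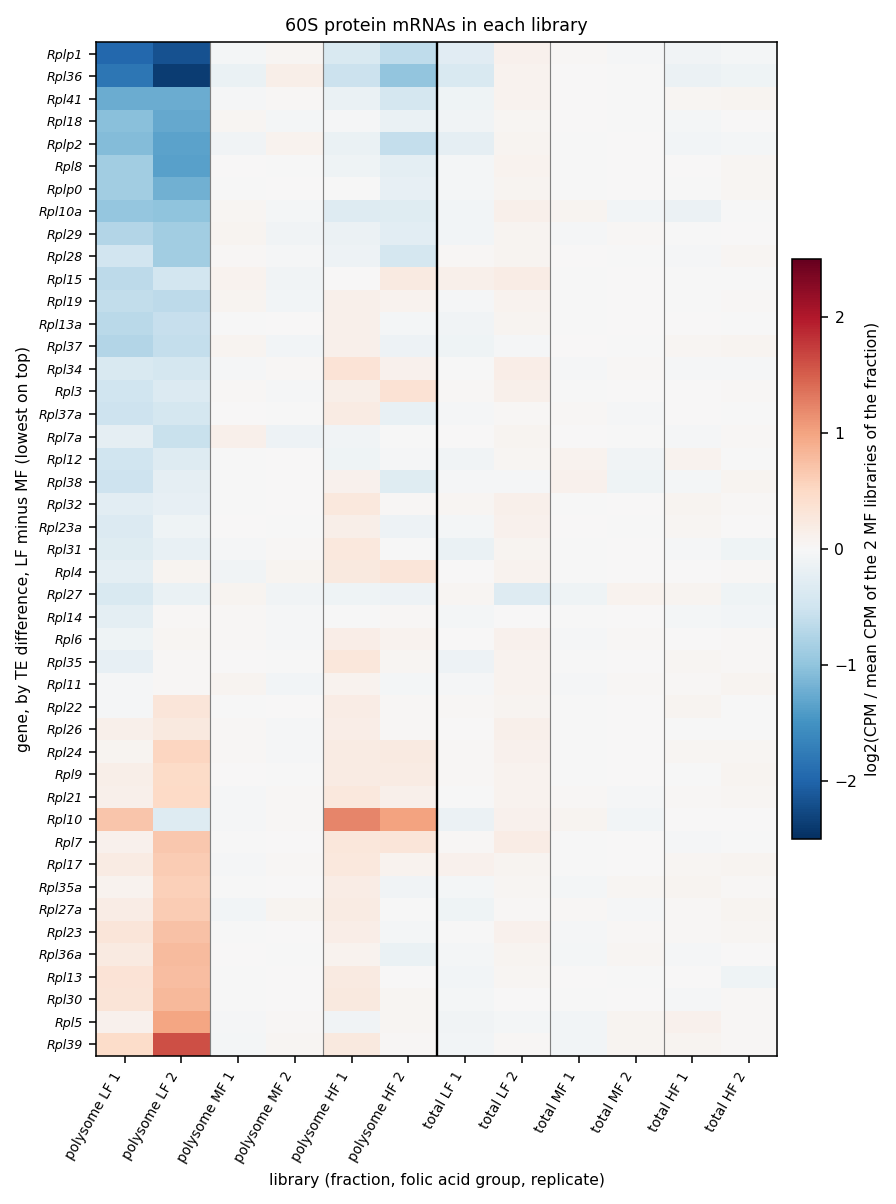
Each cell is 1 gene in 1 library, coloured by log2 of its CPM over the mean CPM of the 2 MF libraries of the same fraction, with polysome libraries left of the black line and total libraries right of it, and genes ordered by the LF minus MF difference of log2(polysome/total). The 6 total libraries stay near 0 throughout, and the polysome LF libraries spread from strongly lower (Rplp1, Rpl36) to higher (Rpl39).

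The next comparison asked how strongly each mRNA was represented in heavy polysomes. The ratio of polysome to total mRNA, called translation efficiency (TE) in the study, was fitted over all 12 libraries, and it is relative: a value of 0 stands for a gene whose share was the same in both fractions, and the median over 14421 genes was -0.09 on the log2 scale. Over the 3 doses the median of the 45 members was 0.60. Of the members 34 were higher in polysomes, against 32.7% of all genes, and 4 were lower, against 38.4% of all genes. By dose 23 were higher and 7 lower in LF (25% and 28.5% of all genes), 33 and 3 in MF (26% and 29.3%) and 32 and 3 in HF (25.7% and 30.7%). The share of all genes is not given for the refits of LF that follow. In LF the counts were 30 and 8 without the first polysome LF library, 24 and 10 without the second, and 12 and 3 with only the libraries compared.

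The highest ratios belonged to proteins from several parts of the subunit. Rpl7 had 2530 and 3755 CPM in polysome LF, 2338 and 2346 CPM in polysome MF and 2834 and 2890.0 CPM in polysome HF, against between 990.0 and 1143 CPM in total mRNA. All 6 polysome libraries lay above all 6 total libraries, and the fold over doses was 2.67 (log2 1.42, SE 0.0929, edgeR adjusted p = 3.11e-07). Rpl24, which reaches across to the small subunit, was 2.34-fold higher in polysomes (log2 1.23, SE 0.0816). Rpl3, which lies close to the peptidyl transferase centre, was 2.16-fold higher (log2 1.11, SE 0.0657), and Rpl19, whose long helix forms a bridge to the small subunit, 2.04-fold higher (log2 1.03, SE 0.0584). Rpl27 had the second-highest value at 1.37, and with its copies summed it was 0.71. By dose Rpl7 was highest in LF (1.53) and HF (1.52), followed in HF by Rpl3 (1.43), while in MF Rpl8 (1.25) and Rpl19 (1.22) came after Rpl27 (1.44).

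The lowest ratio over doses belonged to Rpl41, whose 25 codons make it the shortest coding sequence of the group. It had 172 and 169.7 CPM in polysome LF, 397 and 409 CPM in polysome MF and 359 and 297 CPM in polysome HF, against between 462 and 529 CPM in total mRNA. Every polysome library lay below every total library, and over doses the log2 ratio was -0.83 (SE 0.0701, edgeR adjusted p = 1.80e-06). Rpl39, a tunnel protein of 51 codons, followed at -0.58 (SE 0.160, adjusted p = 0.00728). Its libraries overlapped between fractions: it had 101 and 223 CPM in polysome LF and between 71.1 and 86.8 CPM in the other polysome libraries, against between 139 and 154 CPM in total mRNA. Rplp1 was also lower over doses at -0.27 (SE 0.0889, adjusted p = 0.0200), although it was called lower at LF only, called higher at MF (0.54) and not called at HF (0.12), and this call held in 8 of 19 alternatives. By dose Rpl41 was lowest in LF (-1.54), and Rpl39 in MF and HF. Rpl41 stood at -0.30 in MF, which was not called, and at -0.65 in HF, where Rpl39 stood at -0.91 and Rpl5 at -0.73. Rpl5, the other member called lower over doses, stood at -0.44, but this direction turned with copies summed, to 0.75 (edgeR adjusted p = 1.83e-05).

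Coding length and this ratio went together across the members. Pearson's r of the log2 ratio over doses with log2 of the number of codons was 0.48 over 45 members and 0.67 over the 34 with less than 1% in copies (Spearman 0.61), and over 33 proteins of the small subunit it was 0.53. The 15 shortest coding sequences (25 to 128 codons) had a median of 0.34, with 9 above 0. The middle 15 (135 to 192 codons) had a median of 0.61 and the 15 longest (196 to 419 codons) 0.72, each with 13 above 0. Long coding sequences can hold more ribosomes, and the polysome pool was taken above 3 ribosomes per mRNA. The part of this in the relation was not tested. The points share their 12 libraries, and the relation is a description across genes.

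**Figure D3:**
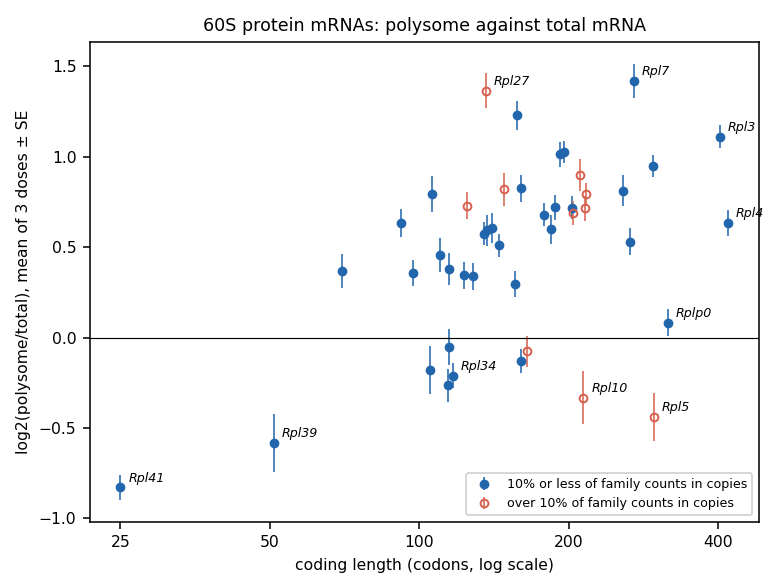
The log2 of polysome over total mRNA, averaged over LF, MF and HF (± SE), is plotted against coding length in codons on a log axis, with open circles for genes that had more than 10% of family counts in copies. Rpl41 at 25 codons and Rpl39 at 51 codons lie lowest, and most genes lie above 0.

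Of the 22 other body proteins 19 were higher in polysomes and none was lower, with a median of 0.66. All but Rpl39 of the 8 proteins of the tunnel and its exit were higher, and so were 4 of 5 proteins near the tRNA sites or in the L1 stalk. The other of these 5, Rpl10, was not called at -0.33 for the gene alone. With copies summed Rpl10 was higher at 0.77 (edgeR adjusted p = 8.79e-07). In the P stalk, the flexible arm that recruits the GTPase translation factors, 0 of 4 were higher and 1 was lower over doses, and the median was -0.06. This mean covers unlike doses: Rplp0 was lower in LF (-0.57) and higher in MF (0.47) and HF (0.35), Rplp1 was lower in LF (-1.46) and higher in MF (0.54), and Rplp2 was lower in LF (-0.70). Over doses Rplp0, the anchor of the stalk, stood at 0.08, Rplp2 at -0.05 and Rpl12, its base, at -0.08. Rpl12 with copies summed stood at 0.55 and was then called higher (edgeR adjusted p = 7.71e-05). Of the 5S RNP, which carries the small 5S rRNA into the subunit and, when free, is known to bind Mdm2, Rpl11 was higher at 0.68 (SE 0.0628, adjusted p = 3.43e-06).

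Between doses, the called TE differences all involved low folate. In LF against MF 4 of 45 members were lower and 0 were higher, against 0.201% and 0.0347% of all 14421 genes. The 4 were Rplp1, Rpl41, Rpl18 and Rpl10a. The median of the members was -0.19, with 29 below 0 and 16 above, against a median of 0.02 over all genes, and 22 members had an unadjusted p under 0.05. Without the first polysome LF library 31 members were called, 18 lower and 13 higher, and without the second 16 were called, 15 lower and 1 higher. In both fits LF rested on 1 polysome library, whose spread was taken from the other groups. The share of all genes is given for neither of these fits nor for the unadjusted p, so those counts cannot be set against a background. Without any other single library between 0 and 2 members were called, and 0 were called without either polysome MF library, either total MF library or the second total LF library. The relative log expression scaling called 7, all lower. For that scaling and for the fits without any other single library the share of all genes is likewise not given. Without the first and without the second polysome LF library the values were -2.12 and -1.89 for Rplp1, -1.25 and -1.23 for Rpl41, -1.27 and -1.02 for Rpl18, and -1.05 and -1.01 for Rpl10a, each called in both fits.

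Rplp1, one of the acidic proteins at the tip of the P stalk, differed most. It had 88.6 and 75.8 CPM in polysome LF, against 332 and 359 CPM in polysome MF. In total mRNA it had 195 and 257 CPM in LF, against 240.4 and 234 CPM in MF. The polysome groups were far apart while the total groups overlapped, and the ratio was 4.00-fold lower in LF (log2 -2.00, SE 0.220, edgeR adjusted p = 0.0148). Over 20 alternatives the log2 value ran between -2.19 and -1.58 and the adjusted p between 2.15e-13 and 0.183, with 14 alternatives past the threshold. It was also the 1 member called in polysome mRNA alone, LF against MF, where 0.0223% of 13433 genes were called. There it was 4.23-fold lower (log2 -2.08, SE 0.197, adjusted p = 0.0307), and this call was lost without either polysome MF library (adjusted p = 0.173 and 0.275) and without either polysome HF library (adjusted p = 0.0974 and 0.0853). The TE call was lost without either polysome MF library, either total MF library and the second total LF library (adjusted p between 0.0741 and 0.183), and both calls were lost with only the libraries compared.

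Its partners of the stalk were on the same side without passing the threshold. Rplp2, which pairs with Rplp1, had 65.6 and 54.9 CPM in polysome LF, against 130.0 and 148 CPM in polysome MF, with a TE difference of -1.13 (SE 0.241, edgeR adjusted p = 0.0960). Rplp0 had 947 and 749.6 CPM in polysome LF, against 1713 and 1745 CPM in polysome MF, with a difference of -1.04 (SE 0.182, adjusted p = 0.0589). In both genes each polysome LF library lay below each polysome MF library. Rpl12 stood at -0.38 for the gene alone and at -0.47 with copies.

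Rpl41 had the next called value. Its 172 and 169.7 CPM in polysome LF stood against 397 and 409 CPM in polysome MF, and its 462 and 529 CPM in total LF against 499 and 493 CPM in total MF. The polysome groups did not overlap, and the TE difference was -1.24 (2.36-fold lower, SE 0.171, edgeR adjusted p = 0.0334). Rpl18, a body protein, had 499 and 421 CPM in polysome LF, against 1053 and 997 CPM in polysome MF. Its total mRNA stood at 439 and 487 CPM in LF, against 473 and 465 CPM in MF. The TE difference was -1.14 (SE 0.168, adjusted p = 0.0334). The call held in 10 of 20 alternatives for Rpl41 and in 7 of 20 for Rpl18, whose value ran between -1.27 and -0.66.

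Rpl10a, the protein of the mobile L1 stalk at the exit of spent tRNA, had 189.9 and 185 CPM in polysome LF, against 385 and 361 CPM in polysome MF, with a TE difference of -1.03 (SE 0.166, adjusted p = 0.0497). This call did not hold once its copies were counted. With copies summed the difference was -0.48 (edgeR adjusted p = 0.188). The copies themselves had 446 and 484 CPM in polysome LF, against 517 and 496 CPM in polysome MF.

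Rpl36, another body protein, had the second-lowest value and missed the threshold. It had 18.4 and 12.5 CPM in polysome LF, against 57.6 and 70.8 CPM in polysome MF, and its TE difference was -1.92 (SE 0.326, edgeR adjusted p = 0.0527). Rpl8, close to the peptidyl transferase centre, stood at -1.11 (SE 0.210, adjusted p = 0.0767), with 702 and 502 CPM in polysome LF, against 1296 and 1272 CPM in polysome MF.

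At the other end, members with higher values in LF were not called. Rpl39 had 101 and 223 CPM in polysome LF, against 71.1 and 75.8 CPM in polysome MF, and its TE difference of 1.16 (SE 0.393, edgeR adjusted p = 0.213) rested on replicates that differed more than 2-fold from each other. Rpl30 had 414 and 584 CPM in polysome LF, against 329.5 and 337 CPM in polysome MF, with a difference of 0.61. Rpl36a, at the tRNA exit site, stood at 0.52 and Rpl23, at the contact with the small subunit, at 0.48. Rpl5 stood at 0.69 for the gene alone and at 0.09 with copies, and Rpl13 at 0.57 and -0.28. In polysome mRNA 24 members had both LF libraries below both MF libraries and 14 had both above, against 23.8% and 24.7% of all 14421 genes, and 7 overlapped.

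By position, none of the 8 proteins of the tunnel and its exit was called in LF against MF, and their median was -0.10. Rpl19 was lowest among them at -0.68 (SE 0.142, edgeR adjusted p = 0.0915), with 1081 and 1050.4 CPM in polysome LF, against 1732 and 1583 CPM in polysome MF. Rpl4, whose long loop narrows the tunnel, stood at -0.13, Rpl35 at -0.07, Rpl26 at 0.12 and Rpl17 at 0.35. Rpl11 had 781 and 822 CPM in polysome LF, against 840.2 and 764 CPM in polysome MF, so that the groups overlapped, and stood at -0.04. Of the 4 proteins at the contact with the small subunit Rpl41 alone was below 0.

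The 22 other body proteins had a median of -0.32, with 15 below 0 and 7 above. Besides Rpl36 and Rpl18, the lower end held Rpl29 at -0.80 (SE 0.162, edgeR adjusted p = 0.0861), Rpl28 at -0.72, Rpl15 at -0.72 and Rpl13a, known in human cells as a part of an inhibitor complex of translation after release from the ribosome, at -0.62. Rpl29 had 277 and 252 CPM in polysome LF, against 484 and 435 CPM in polysome MF, and Rpl13a had 683 and 739.8 CPM, against 1082 and 1109.7 CPM. In both the LF libraries lay below the MF libraries. Rpl37 (-0.60), Rpl34 (-0.48), Rpl37a (-0.48), Rpl7a (-0.43), Rpl38 (-0.33), Rpl32 (-0.32) and Rpl6 (-0.09) were also below 0, and Rpl22 (0.09), Rpl9 (0.26), Rpl21 (0.29), Rpl7 (0.31) and Rpl35a (0.36) were above it. With copies summed Rpl15 stood at -0.41, Rpl27 at -0.32 (-0.13 for the gene alone), Rpl27a at 0.04 (0.47 alone) and Rpl14 at 0.02 (-0.09 alone). None of these passed the threshold.

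**Figure D4:**
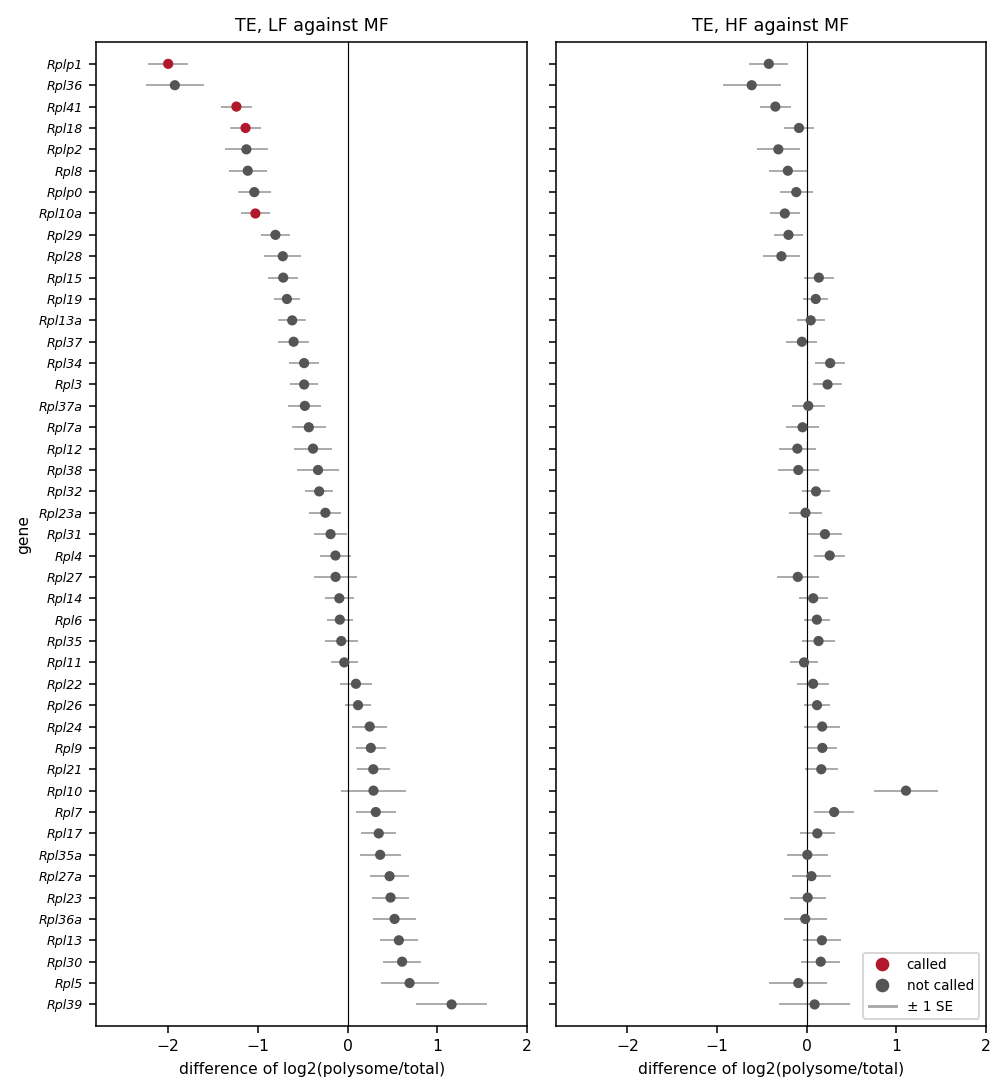
Points give the difference of log2(polysome/total) against MF for LF (left) and HF (right) with bars of ± 1 SE, the 45 genes in the same order in both panels. In LF 4 genes are called (red), with Rplp1 lowest at -2.00. In HF none is called, and most points lie within 0.4 of 0.

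At high folate 0 members were called in TE or in polysome mRNA against MF, where 0% of all genes were called (edgeR), and DESeq2 called 0 members in both. An unadjusted p under 0.05 was reached by 1 member in TE and by 3 in polysome mRNA. Without either polysome LF library, which enters these fits only through the shared estimate of the spread, Rpl10 was called higher in TE and polysomes, and Rpl36 and Rplp1 were called lower in polysomes. The median TE difference was 0.04, with 26 members above 0 and 19 below. The largest value was that of Rpl10, which joins the subunit late in its maturation and lies near the tRNA acceptor ends. It had 370 and 321 CPM in polysome HF, against 156 and 161 CPM in polysome MF, with a TE difference of 1.11 (SE 0.359, adjusted p = 0.982). With its copies summed the difference was 0.26. Rpl36 had the lowest value at -0.61 (SE 0.322), followed by Rplp1 at -0.42 (SE 0.218) and Rpl41 at -0.35 (SE 0.170). Rpl36 had 44.3 and 32.6 CPM in polysome HF, against 57.6 and 70.8 CPM in polysome MF, and Rplp1 had 267 and 223 CPM, against 332 and 359 CPM. Both polysome HF libraries lay above both polysome MF libraries in 16 members and below them in 10, against 25.4% and 27% of all genes. Of the stalk genes Rplp1, Rplp2 (-0.32) and Rplp0 were below 0 in TE, HF against MF, and Rpl12 stood at -0.10 for the gene alone and at 0.12 with copies.

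The direct comparison of HF with LF called 1 member in TE, higher in HF, against 0.0763% of all genes. Rplp1 had 267 and 223 CPM in polysome HF, against 88.6 and 75.8 CPM in polysome LF, and its ratio was 2.98-fold higher (log2 1.58, SE 0.219, edgeR adjusted p = 0.0466). Rpl36 stood at 1.31 (SE 0.326, adjusted p = 0.108) and Rpl18 at 1.05 (SE 0.168, adjusted p = 0.0530). Rpl18 had 999 and 909 CPM in polysome HF, against 499 and 421 CPM in polysome LF, without overlap. At the low end stood Rpl39 at -1.07 (SE 0.392, adjusted p = 0.247), Rpl5 at -0.79 and Rpl36a at -0.54, and Rpl5 with copies was at -0.04. The call of Rplp1 was absent without polysome HF replicate 1 or 2, as it was without any 1 of the MF or total libraries, and the count was 29 without the first polysome LF library (20 higher, 9 lower) and 18, all higher, without the second. In polysome mRNA alone no member was called (edgeR), against 0.0149% of all genes, and 21 members had an unadjusted p under 0.05, while DESeq2 called 7, all higher in HF. The share of all genes is not given for the fits without 1 library, for the unadjusted p or for DESeq2. Both polysome HF libraries lay above both polysome LF libraries in 26 members and below them in 6, against 20.5% and 19.9% of all genes. The 3 comparisons share their libraries pairwise, so that a low polysome LF value enters both LF against MF and HF against LF.

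Across the 45 members the LF differences varied with base composition. Each coding sequence was taken from the GENCODE M21 annotation, and its share of G and C ran between 44.9% (Rpl30) and 61.6% (Rpl36). The first 30 coding bases are shown for the 2 lowest and the 2 highest TE differences among the 34 members with less than 1% in copies, G and C in capitals. Rplp1 lies on chromosome 9, Rpl36 on 17, Rpl39 on X and Rpl30 on 15.
Rplp1: atGGCttCCGtCtCCGaGCtCGCttGCatC
Rpl36: atGGCtCtGCGCtaCCCCatGGCCGtGGGC
Rpl39: atGtCttCtCaCaaGaCtttCCGaatCaaG
Rpl30: atGGtGGCCGCaaaGaaGaCGaaaaaGtCt
These stretches held 18 (Rplp1) and 21 (Rpl36) G or C, against 12 (Rpl39) and 14 (Rpl30). For the next 2 genes on each side the order was the other way. The stretch held 15 in Rpl41 and 15 in Rpl18, against 17 in Rpl36a and 20 in Rpl23. In the 15 members with the lowest coding G and C (44.9% to 50.7%) 12 had a TE difference above 0 in LF against MF, with a median of 0.31. In the middle 15 (51.0% to 54.1%) 3 were above 0 and the median was -0.25. In the highest 15 (54.3% to 61.6%) 1 was above 0, Rpl13, whose direction turned with copies summed, and the median was -0.72.

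Pearson's r of the LF minus MF difference of TE with coding G and C was -0.79 over 45 members and -0.90 over the 34 with less than 1% in copies (Spearman -0.90). For HF against MF it was -0.48 and -0.70, over a narrower range of values. Over 33 small subunit proteins it was -0.73 in LF against MF. The points share the same libraries and give no p-value. Per polysome library, as log2 deviation from the polysome MF mean, r over the 34 members was -0.85 and -0.92 in LF replicates 1 and 2, and -0.76 and -0.64 in HF replicates 1 and 2. Over 9345 other protein-coding genes above 10 CPM it was -0.09 and -0.70 in the LF replicates and -0.47 and -0.54 in the HF replicates. In total mRNA the values for the members were -0.60 and 0.08 in LF and -0.51 and -0.42 in HF. The part of base composition in the TE differences was not tested as a cause. When a trend of each library on coding G and C was removed, an alternative chosen after seeing the data, 7 members were called in LF against MF, all lower (Rplp1, Rplp0, Rpl36, Rpl41, Rpl8, Rpl10a and Rpl3), Rplp1 stood at -1.58 (edgeR adjusted p = 0.00773), and the members' median was -0.28. Rpl18 lost its call there, at -0.66 (adjusted p = 0.0810). The share of all genes called with the trend removed is not given.

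**Figure D5:**
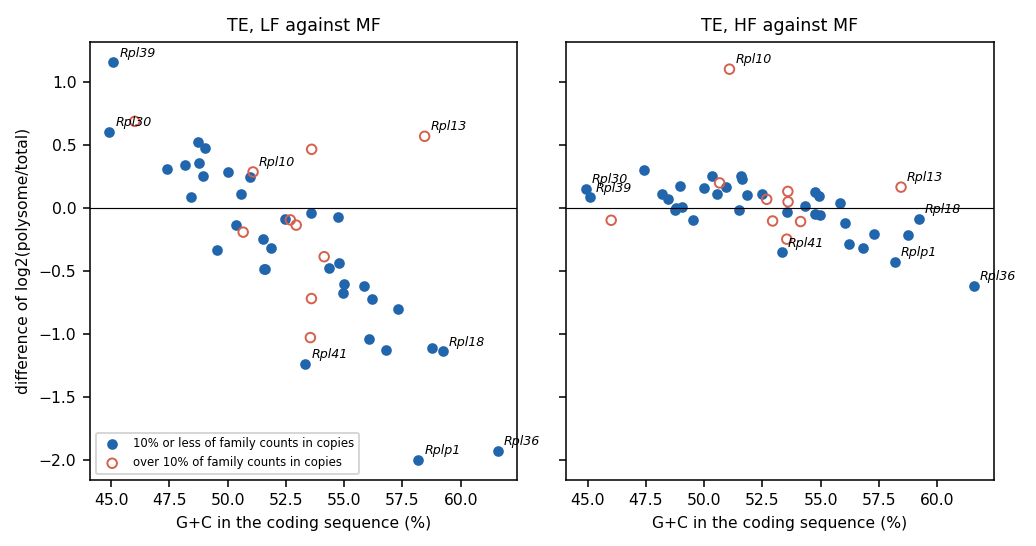
The difference of log2(polysome/total) against MF is plotted for LF (left) and HF (right) over the percentage of G and C in the coding sequence, with open circles for genes that had more than 10% of family counts in copies. In LF the values run down from Rpl39 and Rpl30 at about 45% to Rplp1 and Rpl36 at 58.2% and 61.6%, and in HF the range of values is narrower, with Rpl10 apart at 1.11.

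Tests covered the 16 copies with 100 counts or more. Of these 4 were called in TE, LF against MF, where 0.201% of all 14421 genes were called lower and 0.0347% higher. In TE 1 was called in HF against LF and 0 in HF against MF. None was called in polysome mRNA or, for the 13 tested there, in total mRNA (edgeR). These calls were not run without each polysome LF library, and RSEM's division of reads between gene and copy was not tested. Gm12918, the copy of Rpl13, was lower in LF against MF (log2 TE difference -2.17, SE 0.290, edgeR adjusted p = 0.0318), while Rpl13 itself stood above 0. The copies of Rpl13 had 60.6 and 37.1 CPM in polysome LF, against 201 and 229 CPM in polysome MF, and took 14.3% of the family's polysome counts in LF, against 52.2% in MF. Rpl37rt, a copy of Rpl37, was lower (-3.19, adjusted p = 0.0334), as was Rpl19-ps11 (-2.44, adjusted p = 0.0497). Rpl14-ps1 was higher (2.03, adjusted p = 0.0497): the copies of Rpl14 had 95.4 and 63.3 CPM in polysome LF, against 13.7 and 20.9 CPM in polysome MF. The study, which used DESeq2, listed Rpl14-ps1 as increased in total mRNA in HF against MF. In total mRNA the copies of Rpl14 had 92.3 and 83.1 CPM in HF, against 56.5 and 69.8 CPM in MF. With all copies summed 3 members were called in LF against MF, all lower, and the members' median was -0.28. Over the 3 doses 37 were then higher and 3 lower in polysomes. At LF 27 were higher and 7 lower, with calls gained by Rpl5, Rpl10, Rpl10a and Rpl15. The shares of all genes in the fits with copies summed are not given.

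Related genes were read in the same fits. Of 6 paralogs, genes that encode a second version of a subunit, Rpl7l1, Rpl22l1 and Rpl36al had enough counts to be tested, and Rpl10l and Rpl39l were at 0 in all libraries. In total mRNA Rpl36al averaged 596 TPM and Rpl22l1 474 TPM. All 3 were higher in polysomes over doses, by 1.18 (Rpl7l1), 1.00 (Rpl36al) and 0.36 (Rpl22l1) on the log2 scale. For Rpl22l1 this mean covers unlike doses, and its fractions overlapped in MF and HF. In MF it had 72.6 and 69.8 CPM in polysomes, against 67.4 and 75.3 CPM in total mRNA. In HF it had 75.4 and 63.8 CPM in polysomes, against 75.1 and 72.6 CPM in total mRNA. Rpl22l1, the paralog of Rpl22, had 119 and 222 CPM in polysome LF, against 72.6 and 69.8 CPM in polysome MF, with a TE difference of 1.17 that was not called.

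Of 40 assembly and export factors of the 60S subunit 0 were called in any dose comparison of total mRNA, polysome mRNA or TE (edgeR), and in TE, LF against MF, 6 had an unadjusted p under 0.05. Over the doses 28 were higher in polysomes and 4 lower, with a median of 0.69, where 32.7% of all genes were higher and 38.4% lower. Nip7 (1.81), Mrto4, which holds the place of Rplp0 during assembly (1.77), and Ebna1bp2 (1.63) were higher, and Mdn1, the very long ATPase that strips factors from the pre-60S particle, was lower (-2.28). Of 18 regulators of TOP mRNAs and mTORC1 5 were higher and 9 lower in polysomes over doses, beside the same 32.7% and 38.4% of all genes. Among them Eif4ebp1, the inhibitor of the cap-binding protein, was higher (2.97), and Rps6kb1, the S6 kinase, was lower (-1.94). None of these 18 was called between doses (edgeR), and 4 had an unadjusted p under 0.05 in TE, LF against MF. For the 33 small subunit proteins the median TE difference in LF against MF was -0.18, against -0.19 for the 45 members of the large subunit.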

How the data were processed

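The files were made by the authors from paired-end reads of stranded poly(A) libraries, aligned with Bowtie2 2.2.9 and quantified with RSEM 1.3.0 on mm10. The RSEM strand setting is not given in the sources used here, so that reads of antisense partners may be shared. The deposited tables hold, per gene, expected counts, TPM and FPKM, with transcript lengths (other) that the authors' tool estimated. RSEM divides reads among near-identical copies by probability, which affects genes with pseudogenes. Depth is given in the report, and precision beyond it is limited by 2 replicates per group. Polysome enrichment is relative, since each library was scaled to its own total.

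Of 43432 identifiers 42462 were matched to GENCODE M21 and 45 of 45 members were found. Expected counts were rounded and scaled by TMM over the libraries of each fit, and CPM over all 12. Genes with enough counts (edgeR filterByExpr) entered edgeR 4.0.16 under R 4.3.3 (quasi-likelihood test, Benjamini-Hochberg over all genes): 13912 in total mRNA, 13433 in polysome mRNA and 14421 in the fit over both, where the TE difference is the interaction of fraction and dose. A call needed an adjusted p below 0.05 together with a change of more than 1.2-fold, as in the study. Between replicates the biological coefficient of variation reached 0.231 in polysomes and 0.0433 in total mRNA. In the fit over both, which gave the TE calls, it was 0.164. Replicates were biological duplicates by the labels, and p-values measure the spread between these, pooled over the groups of a fit. Those of the fit over both therefore do not measure the spread of the polysome LF duplicates alone. Alternatives were relative log expression scaling, no filter on low counts, a replicate block, DESeq2 1.42.0, only the libraries compared, each library left out in turn, and copies summed. The scripts were tested on simulated data.

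Given in detail were called members, the 3 highest and 3 lowest of each comparison, the P stalk and the 5S RNP, and others only by level or value. The members and lists were chosen with earlier results of these data known. Levels between genes were compared in TPM only. FPKM was not used further.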

Additional observations from a re-analysis of the deposited data

Results flagged for a closer look

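For 4 members the polysome-to-total comparison of LF against MF passed the test of the interaction of fraction and dose (edgeR), meaning that the difference between LF and MF in polysomes was unlike that in total mRNA. The log2 difference was -2.00 for Rplp1, -1.24 for Rpl41, -1.14 for Rpl18 and -1.03 for Rpl10a, and in each gene both polysome LF libraries lay below both polysome MF libraries. For HF against LF the same test was passed by Rplp1, at 1.58. Each of these values rests on the polysome LF replicates, over which 15.8% of genes differed by more than 2-fold. Coding G and C moved with the LF differences over the members (r = -0.79, n = 45), and for Rpl10a 62.1% of the family's counts lay in copies. The part of each in these differences was not tested. No group held 4 or more samples, so that no library was tested as lying far from its group.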

How the results depend on the processing

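In polysomes, LF against MF (1 member called), the count was 10 without a filter, 8 with the replicate block, 6 with the G and C trend removed, 10 with DESeq2 and 0 with only the libraries compared, and between 0 and 29 without 1 library. HF against LF (0) gave 7, 2, 10 and 7 under the first 4 of these and 0 to 27 without 1 library, and HF against MF (0) gave 3 with only the libraries compared and 0 to 3 without 1 library. For TE, LF against MF (4), the count was 7 with relative log expression scaling, 9 without a filter, 1 with the replicate block, 7 with the trend removed, 13 with DESeq2 and 0 with only the libraries compared, and 0 to 31 without 1 library. For TE, HF against LF (1), the same settings gave 2, 8, 0, 12, 14 and 0, and 0 to 29 without 1 library, and for HF against MF (0) only the libraries compared gave 1, and leaving out 1 library 0 to 1. Polysome against total mRNA at LF (30) gave 15 with only the libraries compared. Leaving out 1 library gave 25 to 38 at LF, 26 to 41 at MF, 27 to 39 at HF and 36 to 38 over doses, and 0 to 1 in total mRNA, LF against MF.

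The counts above are of members only, and the shares of all genes called under the same settings are not given beside them. Of 3646 alternative values of 195 single-gene results, 3355 kept direction and side of the threshold, 204 lost it, 73 gained it and 14 turned direction. With copies summed Rpl5 turned to 0.71 at MF, 0.75 at HF and 0.75 over doses (polysome against total) and to -0.043 in total HF against LF, and Rpl10 to 0.69 at MF by either definition of copies. By both definitions Rpl27 turned to 0.027 (total, LF against MF) and Rpl10a to 0.026 (total, HF against MF). Without 1 library, total LF against MF ran between -0.33 and 0.042 for Rpl27, -0.38 and 0.079 for Rpl36 and -0.24 and 0.059 for Rplp2, and total HF against LF between -0.066 and 0.31 for Rpl27, the turned values coming without total LF replicate 2 for Rpl27 and replicate 1 for the others. Beyond the copies' own counts, the cause was not tested. Correlations of same-numbered deviations ran between -0.28 and 0.24 over 15 pairs of groups, and they do not show whether replicate numbers pair the samples. The block lowered the TE calls in LF against MF to 1 (Rplp1). In polysome mRNA it raised the calls to 8 in LF against MF and to 2 in HF against LF. The removal of the G and C trend and the sum of copies found by sequence were chosen after seeing the data. Between the polysome LF replicates the members differed by a median of 0.268 on the log2 scale, against 0.510 over 9586 genes above 10 CPM. Of the 45 members 2 differed by more than 2-fold (Rpl10 and Rpl39). With 2 libraries per group a TE difference of -1.92 (Rpl36) missed the threshold.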
